A study of Mus musculus with 19 samples.

Results

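Expression of Mest, Sfrp5, Bmp3 and Npr3, 4 genes linked to the growth of white adipose tissue, was read in epididymal white adipose tissue (eWAT) of mice on diets that differed in fat and Mg2+. The genes were chosen by name, with earlier results of these data known, as the rows of the deposited table with these symbols. All 4 were present among the 24237 genes used. The tissue came from male C57BL6/J mice that were 9 to 10 weeks old at the start and were fed for 17 weeks, with 1 library per mouse. All diets used palm oil, which gave 10% of the energy in the low-fat diet (LFD) and 60% in the high-fat diet (HFD). The diets held 0.21% (wt/wt) MgO (NormMg) or 0.03% (LowMg). The groups were NormMg-LFD (n = 4, replicates 2 to 5), LowMg-LFD (n = 5), NormMg-HFD (n = 5) and LowMg-HFD (n = 5). Replicates are separate mice. Values are FPKM, which divides the fragments of a gene by its transcript length and by the mapped reads of the library, so that levels may be compared between genes.

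White adipose tissue stores triacylglycerol and grows by enlarging its adipocytes and by forming new ones. Mest encodes a protein of the endoplasmic reticulum with an alpha/beta hydrolase fold. It is imprinted and transcribed from the paternal allele, and in mice its level in fat is known to follow the expansion of fat mass. Sfrp5 encodes a secreted frizzled-related protein that binds Wnt ligands, and Bmp3 encodes a secreted member of the bone morphogenetic protein (BMP) family that counteracts other members. Npr3 encodes the natriuretic peptide clearance receptor, which takes up natriuretic peptides and lacks the guanylyl cyclase of the signalling receptors. Body and fat mass were not among the values analysed here, so that the link to tissue growth is background and was not measured.

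In GENCODE M21 (GRCm38), Mest lies at chr6:30723547-30748465 and Bmp3 at chr5:98854415-98884396, both on the plus strand. Sfrp5 lies at chr19:42197971-42202252 and Npr3 at chr15:11839896-11907287, both on the minus strand. The deposited FPKM data list 11 transcripts for Mest, 3 for Bmp3 and 1 each for Sfrp5 and Npr3. The 3′ end of Mest overlaps Copg2, which lies on the opposite strand at chr6:30747554-30896794, over 912 bases. The strand setting of the libraries is not given in the sources used here, so that reads of Mest and Copg2 in this overlap cannot be told apart. The same holds for 2 opposite-strand genes that are not in the FPKM table, Gm44296 within Mest (896 bases) and Gm5144 at the 5′ end of Npr3 (769 bases).

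RefSeq (GRCm38.p6) gave a start site for 3 of the 4 genes. The 250 bases before the start are shown as a description of where transcription of these genes begins, and were not tested against their expression. They are written 5′ to 3′ on the strand of the gene. Capitals mark a GC box (GGGCGG, searched on both strands) or, in Npr3, a CCAAT box on the opposite strand (read here as ATTGG).
Mest, chr6:30737800-30738049, plus strand: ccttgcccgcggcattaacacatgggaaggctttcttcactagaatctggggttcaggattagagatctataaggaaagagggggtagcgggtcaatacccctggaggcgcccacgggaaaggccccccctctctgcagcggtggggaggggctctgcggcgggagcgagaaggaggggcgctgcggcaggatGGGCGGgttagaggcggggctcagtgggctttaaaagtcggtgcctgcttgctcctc
Sfrp5, chr19:42202253-42202502, minus strand: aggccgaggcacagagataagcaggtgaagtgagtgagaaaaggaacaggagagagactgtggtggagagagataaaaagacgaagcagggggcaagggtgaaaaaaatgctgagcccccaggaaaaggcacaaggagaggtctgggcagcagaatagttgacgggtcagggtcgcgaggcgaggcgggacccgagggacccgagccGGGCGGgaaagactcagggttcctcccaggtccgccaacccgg
Npr3, chr15:11907372-11907621, minus strand: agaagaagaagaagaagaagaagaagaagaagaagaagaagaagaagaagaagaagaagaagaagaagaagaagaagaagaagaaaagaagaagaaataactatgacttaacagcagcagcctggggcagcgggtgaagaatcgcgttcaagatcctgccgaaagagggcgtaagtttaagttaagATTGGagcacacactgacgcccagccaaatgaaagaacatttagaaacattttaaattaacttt

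Mest has 3 start sites in RefSeq. The window shown is that of the second, as the third lies only 3 bases from it, and both lie inside the GENCODE span because longer transcripts begin upstream. The window of the first, chr6:30733256-30733505, held 7 CpG, a GC box that began 13 bases before the start and a match to TTNNGNAA that began 155 bases before it. The window shown for Mest held 14 CpG and that before Sfrp5 held 13, against a median of 6 over 32851 promoter windows of the same length. The window before Npr3 held 6 CpG and was 38.8% G and C, and its distal end was a run of GAA repeats. The windows of Mest and Sfrp5 each held 1 GC box, which began 57 and 43 bases before the start, and a GC box was found in 32.7% of all windows. The CCAAT box of Npr3 began 64 bases before the start, and 33.8% of all windows held this motif. Npr3 also held 1 match to TTNNGNAA, as did the first window of Mest, and this motif was found in 36.8% of windows. The windows shown held no TATA box (TATAAA, in 12.4% of all windows) and no E box (CACGTG, 6.02%) on either strand. They also held no nuclear receptor element (AGGTCA, 14%), no direct repeat of this element with 1 base between (0.0335%) and no C/EBP palindrome (TTGCGCAA, 0.164%). These are matches of letters and do not show binding.

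Depth was even, with 12986441 to 13027028 reads per mouse, of which 86.12% to 90.41% were mapped. The 23 adipocyte genes fixed as a list were present in every mouse (summed FPKM 22388 to 48713). NormMg-LFD replicate 3 held 2272.6 summed FPKM over 15 genes of the exocrine pancreas, against 13.87 to 52.65 in the other mice. LowMg-LFD replicate 4 held 133 summed FPKM over 9 epididymis genes and LowMg-HFD replicate 4 held 29.3, against at most 4.9 elsewhere. LowMg-HFD replicate 4 and NormMg-LFD replicate 4 listed 4355 and 5079 genes at 0 FPKM, fewer than any other mouse. The study's methods leave out a LowMg-HFD mouse because of pancreatic tissue. No LowMg-HFD mouse stood out for pancreas genes here. Results were therefore computed over all 19 mice and again without each of these libraries, and calls of the 4 genes that changed are named beside the result.

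Mest was the most abundant of the genes on the HFD. It was measured at 121.35, 120.26, 79.25 and 204.69 FPKM in NormMg-LFD mice and at 55.95, 124.48, 95.96, 71.19 and 87.29 FPKM in LowMg-LFD mice. On the HFD it was 259, 346.59, 352.3, 475.01 and 597.26 FPKM at normal Mg2+ and 396.9, 623.79, 215.1, 312.13 and 363.05 FPKM at low Mg2+. All 10 HFD mice were above all 9 LFD mice, while the 2 Mg2+ levels overlapped on each diet.

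Sfrp5 was measured at 41.73, 40.73, 30.07 and 77.47 FPKM in NormMg-LFD mice and at 6.26, 34.51, 54.94, 17.08 and 56.13 FPKM in LowMg-LFD mice. It was 85.93, 92.37, 125.06, 167.31 and 262.31 FPKM in NormMg-HFD mice and 346.31, 310.97, 143.37, 138.29 and 238.74 FPKM in LowMg-HFD mice. Again no LFD mouse reached the lowest HFD mouse. LowMg-LFD replicate 1 had the lowest Sfrp5, and 2 LowMg-HFD mice exceeded all NormMg-HFD mice.

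Bmp3 was the least abundant of the 4. It was measured at 8.88, 6.01, 3.75 and 10.64 FPKM in NormMg-LFD mice, and at 2.7, 5.12, 10.74, 1.77 and 5.32 FPKM in LowMg-LFD mice. On the HFD the values were 10.6, 14.56, 10.27, 18.09 and 18.97 FPKM at normal Mg2+ and 24.68, 18.91, 10.59, 13.26 and 15.31 FPKM at low Mg2+. The highest LFD mice, NormMg-LFD replicate 5 and LowMg-LFD replicate 3, overlapped the lowest HFD mice. Bmp3 passed the filter on low values through both HFD groups alone, whereas Mest, Sfrp5 and Npr3 passed through each of the groups.

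Npr3 differed least. It was measured at 204.86, 191.01, 190.08 and 190.73 FPKM in NormMg-LFD mice and at 191.01, 210.1, 169.67, 214.56 and 234.14 FPKM in NormMg-HFD mice. At low Mg2+ it was 118.57, 144.41, 235.51, 91.14 and 167.86 FPKM on the LFD and 241.47, 246.37, 233.98, 206.18 and 290.03 FPKM on the HFD. At low Mg2+, 4 of the 5 LFD mice were below every HFD mouse, and LowMg-LFD replicate 3 lay among the HFD values. The values of the NormMg-LFD mice were close together, with a coefficient of variation of 3.68%, against 36.3% in the LowMg-LFD mice.

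**Figure D1:**
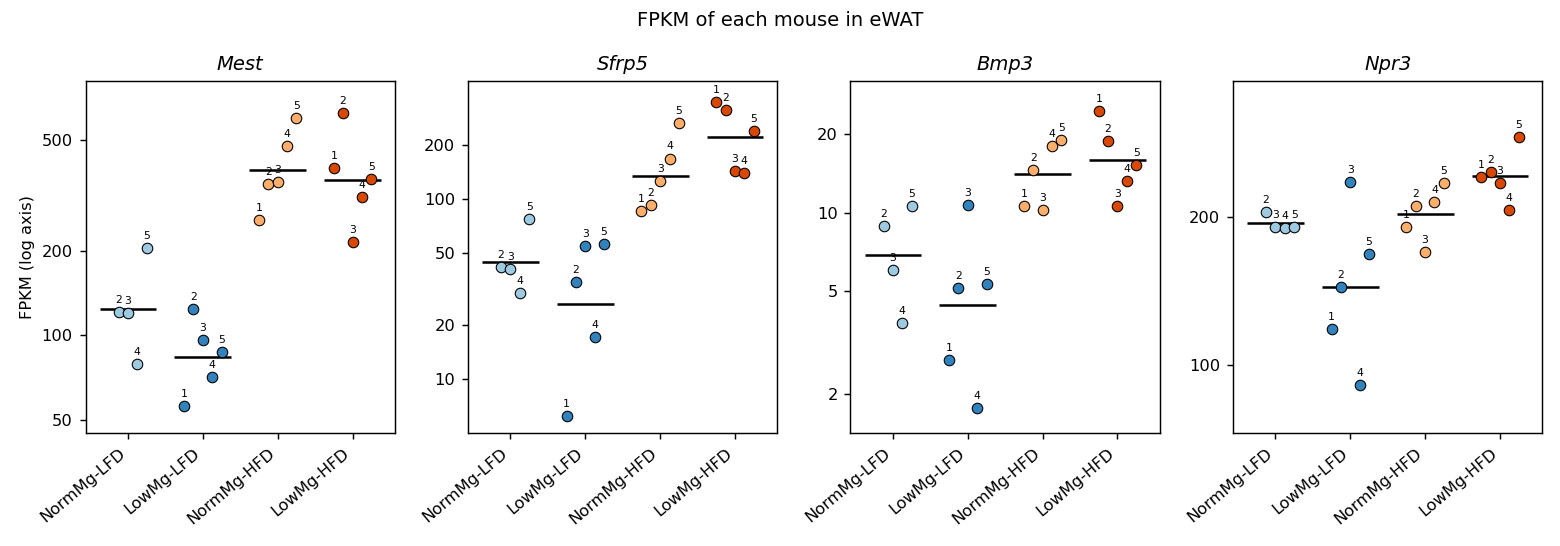
FPKM of Mest, Sfrp5, Bmp3 and Npr3 (log axis, a different range in each panel) in each mouse of the 4 diet groups, with replicate numbers above the points and lines at the mean of log2(FPKM + 1), converted back to FPKM. For Mest and Sfrp5 every HFD mouse lies above every LFD mouse, for example 259 FPKM of Mest in the lowest NormMg-HFD mouse and 204.69 in the highest NormMg-LFD mouse.

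The first question was whether fat raised these genes at normal Mg2+. On the log2(FPKM + 1) scale, the fold change from NormMg-LFD to NormMg-HFD was 1.64 ± 0.30 (SE) for Mest, 1.57 ± 0.50 for Sfrp5 and 0.94 ± 0.35 for Bmp3. The adjusted p values by limma over the 8336 genes tested were 0.000292, 0.0189 and 0.0417. Mean FPKM rose from 131 ± 52.7 (SD, n = 4) to 406 ± 132 (n = 5) for Mest, from 47.5 ± 20.7 to 147 ± 72.3 for Sfrp5 and from 7.32 ± 3.05 to 14.5 ± 4.06 for Bmp3. Npr3, at 194 ± 7.14 and 204 ± 24.5 FPKM, differed by 0.06 ± 0.18 (adjusted p = 0.818), with a 95% interval from -0.32 to 0.45. Over all genes tested, 24.6% rose and 12.8% fell in this contrast. Since Bmp3 entered the test only through the HFD groups, where it is high, no count of the genes that rose is read as a result. For Mest and Sfrp5 every NormMg-HFD mouse was above every NormMg-LFD mouse, as for 21.5% of all genes tested. Their exact two-sided permutation p of 0.00794 is the smallest that 126 arrangements can give.

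The rise of Bmp3 at normal Mg2+ rested on single mice, on the scaling and pseudocount and on the genes tested beside it. Its adjusted p by limma was 0.0772 with median centring, 0.0734 with quantile normalization and 0.0522 with a pseudocount of 0.1. It was 0.102 with no filter on low values and 0.145 without NormMg-LFD replicate 4. It was 0.0957 without NormMg-LFD replicate 3, the mouse with pancreas genes, and 0.0649, 0.0886 and 0.0877 without NormMg-HFD replicates 2, 4 and 5. For Sfrp5 it was 0.0570 without NormMg-LFD replicate 4, 0.0505 without NormMg-HFD replicate 5 and 0.0549 with no filter. Mest passed in each of these settings.

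The second question was whether fat raised them when Mg2+ was low. Mest, Sfrp5, Npr3 and Bmp3 each rose from LowMg-LFD to LowMg-HFD, in a contrast in which 12.4% of genes tested rose and 3.51% fell. The log2 fold change was 3.02 ± 0.47 (SE) for Sfrp5, 2.09 ± 0.29 for Mest, 1.64 ± 0.33 for Bmp3 and 0.75 ± 0.17 for Npr3, and the adjusted p values by limma were 0.000743, 0.000395, 0.00291 and 0.00687. Mean FPKM rose from 33.8 ± 22.3 to 236 ± 94.8 for Sfrp5, from 87.0 ± 26.0 to 382 ± 151 for Mest, from 5.13 ± 3.49 to 16.6 ± 5.47 for Bmp3 and from 151 ± 55.0 to 244 ± 30.3 for Npr3 (SD, n = 5 each). By log2 fold change Sfrp5 ranked 3, Mest 19, Bmp3 49 and Npr3 425 among the 8336 genes. The 4 genes were chosen with earlier results of these data known, and Bmp3 entered the test only through the HFD groups. These ranks are therefore a description and no separate evidence of a rise. For Mest and Sfrp5 every LowMg-HFD mouse was above every LowMg-LFD mouse, as for 6.99% of genes. Values of Bmp3 and Npr3 overlapped in LowMg-LFD replicate 3. Each passed the threshold in all 30 alternative settings run for this contrast, including the one with no filter on low values and those without LowMg-LFD replicate 4 and without LowMg-HFD replicate 4.

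The third question was whether low Mg2+ changed them on the HFD, where 18.5% of all genes tested passed the threshold (5.58% higher and 12.9% lower). None of the 4 did by limma, and none had an unadjusted p under 0.05. The log2 fold change from NormMg-HFD to LowMg-HFD was -0.11 for Mest (95% interval -0.71 to 0.48, adjusted p = 0.820) and 0.71 for Sfrp5 (-0.29 to 1.70, adjusted p = 0.319). It was 0.26 for Npr3 (-0.11 to 0.62, adjusted p = 0.324) and 0.17 for Bmp3 (-0.52 to 0.86, adjusted p = 0.768). The lowest exact permutation p was 0.0635, for Npr3, where 3 of 5 LowMg-HFD mice were above every NormMg-HFD mouse. For Mest, the difference by low Mg2+ on the HFD was 6.94% of the rise by fat at normal Mg2+, in the opposite direction, and its sign was reversed without LowMg-HFD replicate 3 (0.071), without NormMg-HFD replicate 5 (0.040) and with quantile normalization (0.041). Over 18 mice, without LowMg-HFD replicate 4 and with genes kept by a mean log2(FPKM + 1) over 3, the difference of Sfrp5 was 0.87 (adjusted p by limma over 8808 genes = 0.249), and no call of the 4 genes changed in the 5 contrasts described. These intervals still include changes of considerable size, above all for Sfrp5.

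On the LFD, low Mg2+ passed the threshold for none of the genes tested (0%), although 547 had an unadjusted p under 0.05. The means of all 4 genes were lower in LowMg-LFD mice, by a log2 fold change of -0.56 for Mest, -0.75 for Sfrp5, -0.54 for Bmp3 and -0.43 for Npr3, with adjusted p values by limma from 0.753 to 0.823. Their size rests on single mice. Leaving out each mouse gave -0.77 to -0.32 for Mest, -1.01 to -0.27 for Sfrp5, -0.82 to -0.30 for Bmp3 and -0.61 to -0.27 for Npr3. Of the 4, only Npr3 had an unadjusted p by limma under 0.05 (0.0305), and its exact permutation p was 0.167. For Npr3, 4 of 5 LowMg-LFD mice were below every NormMg-LFD mouse and the other one was above them all. No difference was thus shown after adjustment over all genes.

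The interaction, that is the log2 difference by low Mg2+ under the HFD less the one under the LFD, passed the threshold for none of the 4 genes by limma, and for 1.25% of all genes tested, or 104 genes. This count was 0 without NormMg-LFD replicate 3, 6 without LowMg-LFD replicate 4, 34 without LowMg-HFD replicate 4 and 66 without NormMg-LFD replicate 4, and ranged from 0 to 482 over all mice left out in turn, so that the share rests on single mice. It also moved with the filter and scaling, to 2 with no filter and 347 with quantile normalization. The interaction was 1.45 for Sfrp5 (95% interval 0.01 to 2.90, adjusted p = 0.244), 0.68 for Npr3 (0.16 to 1.21, adjusted p = 0.134), 0.70 for Bmp3 (-0.30 to 1.71, adjusted p = 0.431) and 0.44 for Mest (-0.43 to 1.32, adjusted p = 0.589). Unadjusted intervals of Sfrp5 and Npr3 excluded 0, that of Sfrp5 barely, and the exact permutation p was 0.0217 for Npr3 and 0.0717 for Sfrp5. Leaving out each mouse gave an interaction of 0.98 to 1.72 for Sfrp5 and of 0.52 to 0.86 for Npr3. That the fat contrast of Npr3 passed at low Mg2+ and not at normal Mg2+ is therefore not a shown difference between the Mg2+ levels after adjustment over all genes.

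**Figure D2:**
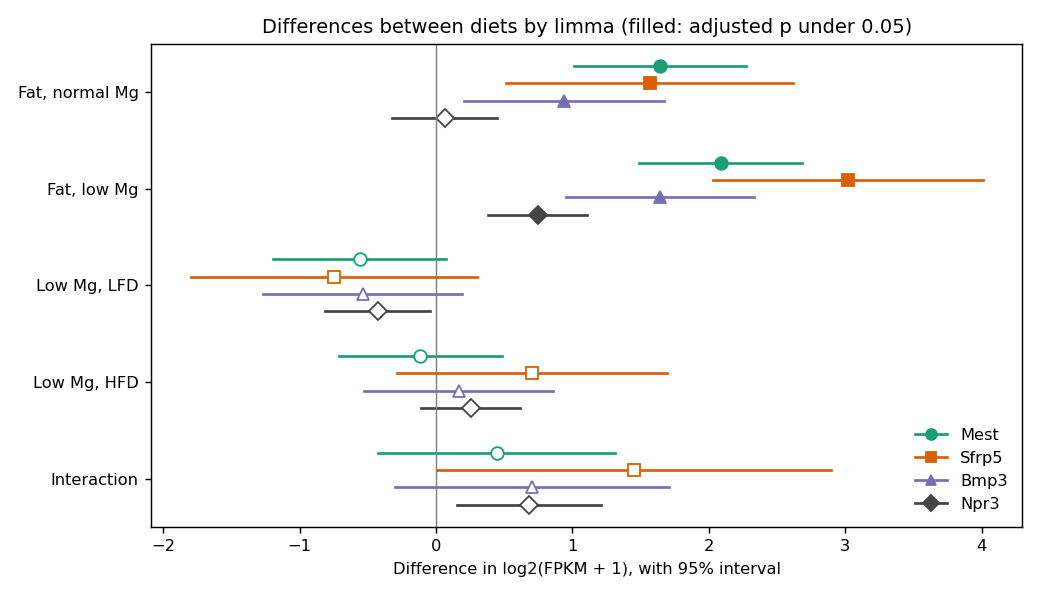
Difference in log2(FPKM + 1) by limma with its 95% interval for each gene, for the fat contrast at normal and low Mg2+ (HFD minus LFD), the Mg2+ contrast on the LFD and on the HFD (LowMg minus NormMg) and their interaction. Filled symbols passed an adjusted p of 0.05. Both fat contrasts hold filled symbols, with Npr3 open at normal Mg2+, and the 3 lower rows hold open symbols only.

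The order of the group means was LowMg-LFD, NormMg-LFD, NormMg-HFD and LowMg-HFD for Sfrp5, Bmp3 and Npr3, and for Mest the HFD groups were exchanged. For Mest and Sfrp5, the step between the LFD groups and the HFD groups was the only one between neighbours in the order that passed the threshold, that of Sfrp5 not with no filter or without the mice named above. The same step of Bmp3 was lost in 11 of 30 settings, among them no filter and a filter of 1 FPKM. For Mest the step lay between NormMg-LFD and LowMg-HFD (log2 fold change 1.53, adjusted p by limma = 0.00813), a contrast in which 6.93% of genes passed. These 578 genes became 198 without LowMg-HFD replicate 2, 229 without LowMg-HFD replicate 1, 245 without NormMg-LFD replicate 2 and 220 without NormMg-LFD replicate 3, so that this share also rests on single mice. It rests on the other groups in the fit as well, as 103 genes passed with only these groups fitted. For Npr3 no step between neighbours passed the threshold after adjustment over all genes, although the unadjusted 95% interval between LowMg-LFD and NormMg-LFD (-0.81 to -0.045) excluded 0. Npr3 was lower in LowMg-LFD mice than in LowMg-HFD mice, as above, and than in NormMg-HFD mice (log2 fold change 0.49, adjusted p by limma = 0.0273), where 44% of genes passed. The latter passed in 22 of 30 alternative settings. It was lost with no filter, with only these groups in the fit, with median centring (0.32) and quantile normalization (0.31), and without LowMg-LFD replicate 1 or 4 or NormMg-HFD replicate 4 or 5.

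Across the diagonal of the design, from NormMg-LFD to LowMg-HFD, Sfrp5 rose by a log2 fold change of 2.27 (adjusted p by limma = 0.0120). Bmp3 was 1.10 higher and did not pass (adjusted p by limma = 0.0620), although it passed in 4 of 30 alternative settings, with adjusted p values from 0.0332 to 0.173, and Npr3 was 0.32 higher (adjusted p = 0.337). For Mest, Sfrp5 and Npr3 all 5 LowMg-HFD mice were above the 4 NormMg-LFD mice, as for 6.08% of genes.

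The tissue around these genes also differed between the diets. The mean log2(FPKM + 1) of the 23 adipocyte genes was 9.58 ± 0.25 (SD) in NormMg-LFD, 9.67 ± 0.09 in LowMg-LFD, 8.81 ± 0.21 in NormMg-HFD and 9.44 ± 0.21 in LowMg-HFD mice. Of these genes, 2 rose and 15 fell by fat at normal Mg2+, with a median log2 fold change of -0.66 against 0.07 over all genes tested. Among those that fell were the adipokines Cfd (-3.80) and Retn (-2.16), the insulin-responsive glucose transporter Slc2a4 (-1.45) and the adrenergic receptor Adrb3 (-2.57). Lep, which encodes leptin, rose by 1.69 at normal and by 1.73 at low Mg2+, whereas 4 other adipocyte genes fell at low Mg2+. Mest therefore rose, in each of the settings run, in the group in which most genes of this list fell.

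Marker genes of macrophages, and in part those of other cells, also differed between the diets. Of the 14 macrophage genes, 13 rose and 1 fell by fat at normal Mg2+ and 10 rose at low Mg2+. Of the 14 stromal progenitor genes, 7 rose at normal and 3 at low Mg2+. Over all genes tested, 24.6% and 12.4% rose in these contrasts, and nothing particular is read from the 3 stromal progenitor genes. The summed FPKM of the 14 macrophage genes was 724 to 866 in NormMg-LFD, 566 to 1112 in LowMg-LFD, 2808 to 4519 in NormMg-HFD and 896 to 2594 in LowMg-HFD mice, with none of the 14 at 0 in all mice of a group. The 14 stromal progenitor genes summed to 1455 to 1753, 984 to 1653, 2236 to 2964 and 1333 to 1722 FPKM in the same order. The 9 lymphocyte genes summed to 17.5 to 26.4, 18.3 to 27.6, 40.4 to 77.2 and 24.2 to 48.8 FPKM. In every mouse the largest part of this sum came from Ptprc, which all leukocytes express, at 8.28 to 52.58 FPKM, while the other 8 genes were each at most 5.99 FPKM in any mouse. The 8 mesothelial genes summed to 43.9 to 126, 25.1 to 103, 12.4 to 28.4 and 23.5 to 85.0 FPKM. The 9 endothelial genes overlapped between all groups, at 390 to 476, 363 to 422, 327 to 412 and 397 to 467 FPKM. No gene of these 3 lists was at 0 in every mouse of a group. The part of these shifts in the results on the 4 genes was not tested. In whole tissue, fewer cells of a type and less RNA per cell cannot be told apart.

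When each mouse was centred on the adipocyte list, a choice made with the data already seen, the fat difference at normal Mg2+ was 2.41 for Mest, 2.33 for Sfrp5, 1.70 for Bmp3 and 0.82 for Npr3 on the log2 scale. All then passed the threshold, as did 6978 of the 8336 genes tested, so that nothing particular to Npr3 is read from its call there. Relative to this list, Mest in LowMg-HFD mice was below that of NormMg-HFD mice, with a log2 difference of -0.74 (adjusted p by limma = 0.0158, exact permutation p = 0.0556), where 6623 genes passed. Those of Bmp3 and Npr3 turned negative, at -0.46 (exact permutation p = 0.135) and -0.37 (0.00794, the smallest that 252 arrangements can give), without passing by limma. Sfrp5 differed by 0.08 (exact permutation p = 0.833). The list itself moved in these contrasts, with 13 of its 23 genes raised and none reduced by low Mg2+ on the HFD. The centring therefore adds 0.76 to each gene in the fat contrast at normal Mg2+ and 0.23 at low Mg2+, and shifts each by -0.62 in the Mg2+ contrast on the HFD.

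**Figure D3:**
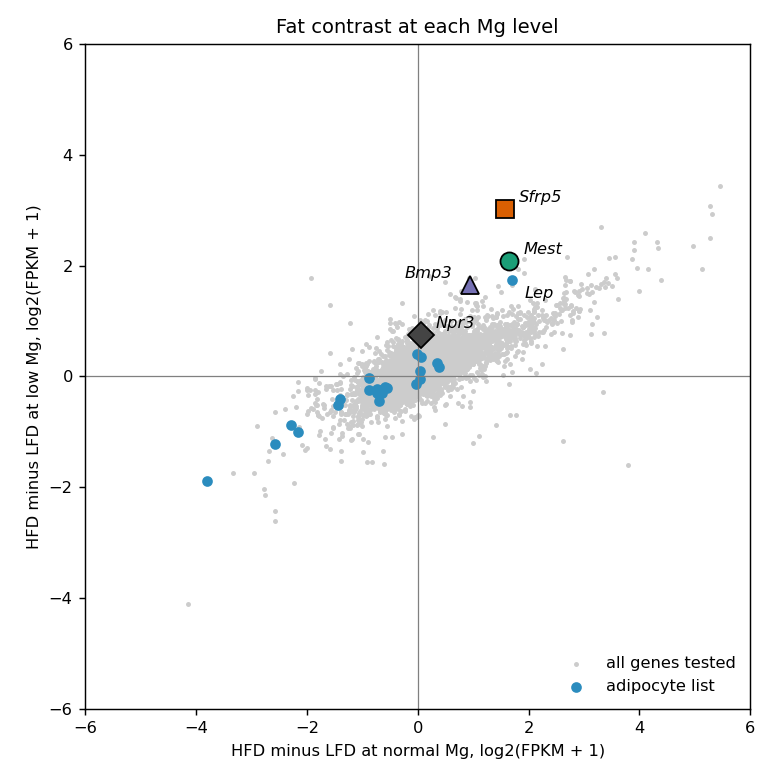
Fat contrast (HFD minus LFD) in log2(FPKM + 1) at normal Mg2+ (horizontal axis) and at low Mg2+ (vertical axis) for the 8336 genes tested (grey), the adipocyte list (blue) and the 4 genes, with Lep also labelled. Sfrp5 lies at 1.57 and 3.02, Mest at 1.64 and 2.09 and Bmp3 at 0.94 and 1.64, while Npr3 lies at 0.06 and 0.75, and most of the adipocyte genes lie to the left of 0.

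Genes of the pathways of each member were read from lists. Over all genes tested, the median log2 fold change was 0.07 by fat at normal Mg2+, 0.10 by fat at low Mg2+ and -0.04 by low Mg2+ on the HFD. The shares of all genes tested that rose and fell were 24.6% and 12.8%, 12.4% and 3.51%, and 5.58% and 12.9% in these contrasts, and nothing particular to a list is read from counts near or below them. With median centring or quantile normalization no list reversed its balance of rises and falls. Relative to the adipocyte list, several lists did reverse by fat at normal Mg2+ and by low Mg2+ on the HFD, as this centring adds the same amount to each gene of a contrast. The directions given for these genes are therefore those of FPKM per library. Of 30 genes of the SFRP family and Wnt pathway in the table, 11 were tested. By fat at normal Mg2+ none rose and 4 fell: the receptors Fzd4 (-0.76) and Lrp5 (-0.52), the target gene Axin2 (-1.19) and the transcription factor Tcf7l1 (-0.48), with a median of -0.07. By fat at low Mg2+, 1 rose, the feedback inhibitor Nkd1 (1.15, adjusted p by limma = 0.00850), and none fell. By low Mg2+ on the HFD, Fzd4 (0.63) and Lrp5 (0.34) rose and none fell. The paralog Sfrp2 differed by -0.07 and 0.46 by fat at normal and low Mg2+ (adjusted p = 0.884 and 0.334). Sfrp4 was not tested and its mean was 3.20 FPKM in NormMg-LFD and 8.26 FPKM in NormMg-HFD mice, below Sfrp5 in each group.

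Of 33 genes of the BMP pathway, 17 were tested. By fat at normal Mg2+, 2 rose and 3 fell, with a median of -0.09. The genes that rose were Fstl1, a secreted follistatin-like protein (0.92), and Bmp1, a procollagen proteinase that is not a BMP ligand (0.43). Those that fell were Chrdl1, a secreted BMP antagonist (-1.19), Bmp6 (-0.47) and Gdf10, the closest paralog of Bmp3 (-0.72, adjusted p by limma = 0.0372). Gdf10 went from 25.3 ± 11.4 to 14.1 ± 2.77 FPKM, and at low Mg2+ it differed by -0.41 (adjusted p = 0.276). By fat at low Mg2+, 3 genes rose and none fell: the receptors Bmpr1a (0.52) and Acvrl1 (0.40), and Bmp1 (0.37). With median centring or quantile normalization 1 of the BMP genes rose there. By low Mg2+ on the HFD, Chrdl1 rose (1.14) and Fstl1 (-0.78) and Bmp1 (-0.40) fell.

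Of 12 genes of the natriuretic peptide system in the table, 5 were tested. By fat at normal Mg2+, the peptidase Mme (0.63) and the cyclic nucleotide phosphodiesterase Pde2a (0.56) rose, and Npr2, the signalling receptor of the C-type peptide, fell (-0.63). With median centring or quantile normalization 1 of these 5 genes rose there. Npr1, the signalling receptor of the atrial peptide, differed by -0.18 (adjusted p by limma = 0.385) at normal and by 0.04 (adjusted p = 0.878) at low Mg2+. None of the 5 passed by fat at low Mg2+ or by low Mg2+ on the HFD. Per length, Npr3 was above both signalling receptors, at 194 FPKM in NormMg-LFD mice against 35.0 for Npr1 and 35.9 for Npr2. Nppa, which encodes the atrial peptide, had means of 0.0525 to 0.122 FPKM, near 0 in all groups.

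Mest belongs to a network of imprinted genes, of which 21 were in the table and 12 were tested. By fat at normal Mg2+, 2 rose and 6 fell, with a median of -0.22. Those that rose were Copg2 (1.22) and the receptor Igf2r (1.05), and among those that fell were the transcription factor Plagl1 (-1.89) and the cell cycle inhibitor Cdkn1c (-0.85). By fat at low Mg2+, Copg2 (1.44) and Peg3 (1.70) rose and none fell. By low Mg2+ on the HFD, 4 rose, Plagl1 (0.90), Nnat (1.37), Grb10 (0.32) and Sgce (0.47), and Igf2r fell (-0.64). The rise of Copg2, from 49.0 ± 12.9 to 118 ± 39.5 FPKM at normal Mg2+, is uncertain because of its overlap with Mest.

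Of the 21 lipid storage genes tested, 1 rose and 10 fell by fat at normal Mg2+ (median -0.52), and 1 rose and 9 fell at low Mg2+ (median -0.33). The one that rose in both was Lep, the leptin gene. Lep and several other genes are also on the adipocyte list, so that the lists are not independent. Among those that fell in both were Acaca, which makes malonyl-CoA for fatty acid synthesis (-2.24 and -1.93 at normal and low Mg2+), and the lipogenic regulators Mlxipl (-1.26 and -0.93) and Srebf1 (-0.98 and -0.57). By low Mg2+ on the HFD, 10 of the 21 rose and none fell. On the LFD, low Mg2+ passed for no gene of any of these lists by limma.

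The genes also varied together between mice of the same group. After the group mean was subtracted from log2(FPKM + 1), Pearson's r over the 19 mice was 0.77 for Mest and Sfrp5, 0.79 for Sfrp5 and Bmp3, 0.78 for Npr3 and Bmp3, 0.72 for Mest and Bmp3, 0.64 for Sfrp5 and Npr3 and 0.36 for Mest and Npr3. Spearman's rho was 0.85, 0.83, 0.73, 0.84, 0.75 and 0.62 in the same order. Mice of 1 group share a diet and each value pair shares a library, and the values are given as a description. Without the 2 mice farthest from the median of the first gene, r was between 0.46 and 0.86 for the 6 pairs. Within single groups, r of Mest and Sfrp5 was between 0.79 and 0.99, whereas that of Mest and Npr3 was between -0.003 and 0.70. For Sfrp5 and Npr3 it was -0.084 in NormMg-LFD and 0.52 to 0.73 in the other groups. For Npr3 and Bmp3 it was 0.41 in NormMg-LFD, 0.99 in LowMg-LFD, 0.93 in NormMg-HFD and 0.24 in LowMg-HFD, and the r over all mice was 0.55 without LowMg-LFD replicates 3 and 4.

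Single mice show this pattern in part. NormMg-LFD replicate 5 was the highest of its group for Mest, Sfrp5 and Bmp3, at 204.69, 77.47 and 10.64 FPKM. NormMg-LFD replicate 4 was the lowest of its group for the 4 genes, though for Npr3 only at 190.08 against 190.73 FPKM in the next mouse. LowMg-LFD replicates 1 and 4 were the lowest 2 of their group for all 4 genes. NormMg-HFD replicate 5 was the highest of its group for all 4. In the LowMg-HFD group the highest was replicate 2 for Mest, replicate 1 for Sfrp5 and Bmp3 and replicate 5 for Npr3. In replicate 4 of the LowMg-LFD group epididymis genes were raised, as given above, and their part in these low values was not tested.

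**Figure D4:**
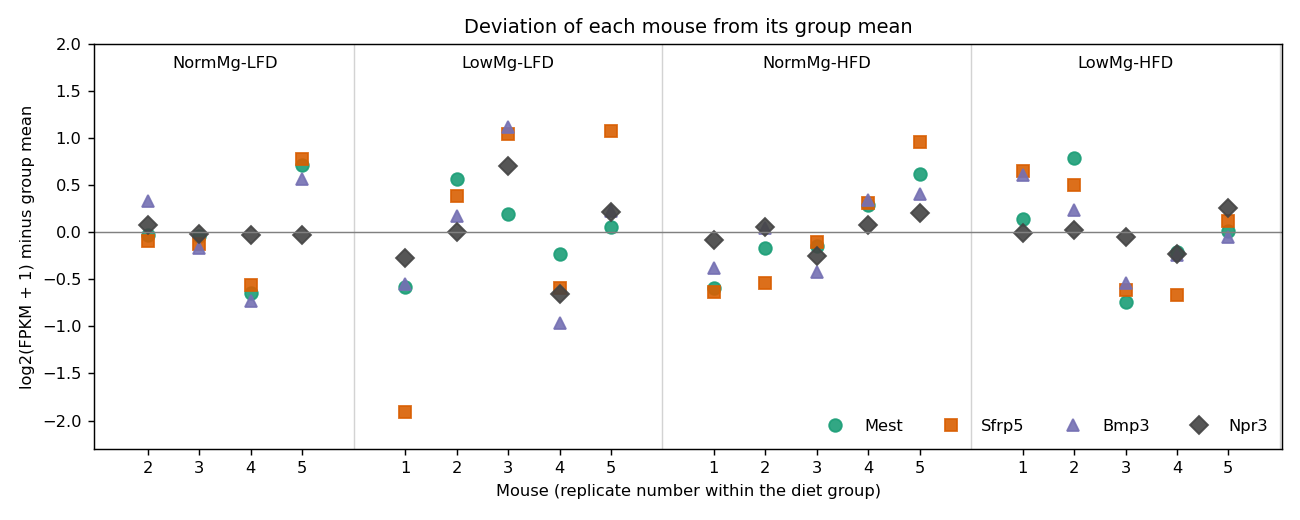
Deviation of each of the 19 mice from the mean log2(FPKM + 1) of its own diet group for the 4 genes. Symbols of 1 mouse mostly lie on the same side of 0, as in NormMg-HFD replicate 5, and LowMg-LFD replicate 1 lies farthest below 0, for Sfrp5 at -1.91.

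When all genes tested were ranked by r of their deviations with each gene, Sfrp5 ranked 12 and Bmp3 44 of 8335 for Mest, and Bmp3 ranked 29 and Mest 40 for Sfrp5. For Bmp3, Sfrp5 ranked 17 and Npr3 21. Npr3 was less like Mest, which ranked 1068. The gene most like Mest was Copg2 (r = 0.95), the overlapping neighbour, followed by Cd59a, an inhibitor of complement (0.85), Gsto1, a glutathione transferase (0.84), Sod3, the extracellular superoxide dismutase (0.84), and Sparc, a matricellular protein (0.83). Most like Sfrp5 were Sod3 (0.94), Ywhaq (0.92), Gramd4 (0.91), Pcolce2, an enhancer of procollagen processing (0.91), and Myl12a (0.90).

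For Bmp3 the most alike were Hmcn2, an extracellular matrix protein (0.92), Srpx2 (0.91), Fgf13 (0.87), Cd59a (0.85) and Pcolce2. Those of Npr3 were Tmem45b (0.90), Rap1gap2 (0.89), the transcription factor Atf5 (0.86), the caveola protein Prkcdbp (0.86) and Hspa12a (0.85). Spearman's rho with Npr3 was 0.86, 0.83, 0.56, 0.65 and 0.83 in the same order. Fgf13 rose by fat like Bmp3, by 1.91 at normal and 2.12 at low Mg2+ (adjusted p by limma = 0.000810 and 0.00142). None of the 5 genes most like Npr3 passed in either fat contrast. The deviations of the mean of the adipocyte list had an r of 0.24 to 0.33 with the 4 genes, and those of the macrophage list -0.22 to 0.28. Higher values were those of the imprinted gene network, which holds Copg2, at 0.41 to 0.71 with the 4 genes. The lipid storage list had an r of 0.52 with Npr3 and of -0.11 to 0.31 with the others.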

How the data were processed

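RNA was isolated from eWAT of 19 mice and sequenced for the authors by a sequencing provider (BGI) as single-end reads. Per the labels and the study's methods, the authors mapped the reads to GRCm38/mm10 with HISAT and Bowtie2 and deposited the FPKM of each gene from RSEM 1.2.31. The read count of each mouse and the percent of reads mapped were deposited by the authors in a second table. FPKM carries no read count per gene, and precision was judged by the variation from mouse to mouse.

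The analysis used 24237 genes, after removal of 1 gene with an unreadable value and repair of 26 symbols that had become dates. After adding a pseudocount of 1 and taking log2, genes over 8 FPKM (mean of a group, and at least 4 mice of it) were tested. The 4 groups were fitted together, with an intensity trend, in limma 3.58.1 under R 4.3.3. Its two-sided p values were corrected over 8336 genes (Benjamini-Hochberg, threshold 0.05). For the RNA sequencing, the study's methods give no test of single genes. Which LowMg-HFD mouse it left out is not known, since the gene set of the size its methods give was reached without replicate 1 and without replicate 4 (8808 genes each). Fold changes on log2(FPKM + 1) understate those of low genes such as Bmp3. Single genes were also compared by exact two-sided permutation tests. The members, lists and motifs were chosen with earlier results of these data known. Genes named from a list are at most the 4 of smallest adjusted p per contrast, and up to 4 others whose role bears on a member. The 5 genes most alike in deviations are named for each member.

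Alternatives were a filter of 1 FPKM or no filter, a pseudocount of 0.1, 18 libraries without LowMg-HFD replicate 4 over genes kept by log2(FPKM + 1) over 3 in place of 8 FPKM, median centring, quantile normalization, no intensity trend, the replicate number as a block, only the groups compared and leaving out each mouse in turn. In simulated data for the fat contrast at normal Mg2+, with 8010 genes tested, the fit called 58.21%, 89.55% and 98.48% of genes whose simulated log2 change was 0.5, 1 and 2. Changes were planted only in genes with a mean log2(FPKM + 1) over 4 across all mice, which Bmp3 did not reach. The shares are averages over genes of differing spread and do not apply to Bmp3. Figures were drawn with matplotlib 3.10.9.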

Additional observations from a re-analysis of the deposited data

Results flagged for a closer look

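Of 16 sets of values tested (4 genes in 4 groups), 1 held a mouse far from the others. In NormMg-LFD mice, Npr3 was 204.86 FPKM in replicate 2, against 190.08 to 191.01 FPKM in the other 3 mice. The criterion was the 95% critical value of Dixon's test, by which chance picks out about 1 in 20 sets.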

How the results depend on the processing

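By fat at low Mg2+ the 4 genes passed in all 30 settings, and Mest and Sfrp5 kept their direction in all settings in both fat contrasts. The log2 fold change of Bmp3 by fat at normal Mg2+ no longer passed over genes above 1 FPKM (0.94) or with no filter (0.94), where more genes were tested, with a pseudocount of 0.1 (1.03), with median centring (0.83) or quantile normalization (0.78), or without the 2 libraries with the fewest genes at 0 (0.69, chosen with the data seen). Leaving out each mouse gave 0.69 to 1.13. That of Sfrp5 did not pass with no filter (1.57) or without these 2 libraries (1.38), and leaving out each mouse gave 1.33 to 1.83. The cause was not tested. Npr3 by fat at normal Mg2+ turned to -0.040 with median centring and to -0.13 with quantile normalization. These scalings moved the median of all genes in the fat contrasts by -0.10 to -0.12. Mest by low Mg2+ on the HFD was 0.041 with quantile normalization and -0.31 to 0.071 when each mouse was left out. Relative to the adipocyte list, chosen after the data were seen, by low Mg2+ on the HFD Mest was -0.74 (past the threshold), Bmp3 -0.46 and Npr3 -0.37, and by fat at normal Mg2+ Npr3 was 0.82 (past the threshold). The interaction in this setting was -0.087 for Mest, 0.15 for Npr3, 0.17 for Bmp3 and 0.92 for Sfrp5.

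Of all genes tested, 1329 passed by fat at low Mg2+, 725 with only the groups compared and 800 to 1468 when each mouse was left out. By low Mg2+ on the HFD 1542 passed, and 921 to 1644 when each mouse was left out. Relative to the adipocyte list 6623 passed by low Mg2+ on the HFD and 6978 by fat at normal Mg2+, where the main count was 3114. On the LFD 1 gene passed with no filter. From NormMg-LFD to LowMg-HFD 578 passed, 103 with only the groups compared and 198 to 809 when each mouse was left out. For the interaction 104 passed, and 0 to 482 when each mouse was left out. The count was 2 with no filter, 245 with median centring, 347 with quantile normalization and 1869 relative to the adipocyte list. It thus rests on single mice and on the filter and scaling. Replicate numbers did not pair the mice: the 27 same-numbered pairs had a median r of 0.003 (-0.18 to 0.34), and 3 of 19 mice were most like a mouse of their own number. With the replicate block the log2 fold changes by fat at normal Mg2+ were 1.73 for Mest, 1.72 for Sfrp5, 0.96 for Bmp3 and 0.09 for Npr3, no call of the 4 genes changed in the 5 contrasts described, and the interaction count fell to 0. With 4 or 5 mice per group, and no read counts, the depth behind a single low value such as Bmp3 is unknown.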
